A study of Homo sapiens with 15 samples.

Results

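Aminoacyl-tRNA synthetases, the enzymes that attach each amino acid to its tRNA, were followed in RNA-Seq of Biosensor cells under ER stress and under seeding with tau from diseased mouse brain. The members were 36 genes picked by symbol from the 18338 genes of the expression tables. A symbol ending in 2 marked 16 mitochondrial synthetases, and the other 20 were taken as cytosolic or shared between the compartments. Biosensor cells are a human embryonic kidney (HEK293) line that stably expresses TauRD(P301S)-YFP, a P301S-mutated tau repeat domain joined to a yellow fluorescent protein, and all 3 groups carried this reporter. There were 5 libraries each of cells treated with thapsigargin at 0.3 µM, of cells transfected with brain lysate of PS19 mice, which express human P301S tau in the nervous system, and of control cells that received wildtype mouse brain lysate. Neither the duration of the thapsigargin treatment nor any lysate given with it is stated in the sources used here, so an effect of the drug and one of the lysate cannot be told apart in the thapsigargin comparisons. Replicates were described as independent without naming separate cultures, and p-values therefore measure the spread between libraries of a single line, which may be technical.
Cells make the synthetases from separate nuclear genes for the cytosol and for the mitochondrion, where a small set of respiratory chain subunits is translated on its own ribosomes. GARS and KARS, for glycine and lysine, serve both compartments from a shared gene, EPRS carries the glutamate and proline enzymes in a single chain, and FARSA and FARSB are the subunits of the phenylalanine enzyme. Many cytosolic synthetase genes are known targets of ATF4, the transcription factor translated when the kinases PERK or GCN2 phosphorylate eIF2α, and ATF4 with its C/EBP partners binds C/EBP-ATF composite elements. Thapsigargin empties the ER calcium store and thereby activates PERK.
Expression was given as FPKM, fragments scaled to transcript length and to the mapped fragments of the library, and the read depth of each library is unknown. Library sums ran between 551499 and 637687 FPKM for thapsigargin, 523601 and 547043 FPKM for PS19 lysate, and 506146 and 552511 FPKM for control. Across the 11753 genes that averaged 1 FPKM or more, the correlation of log2 values between libraries of a group was 0.9632 to 0.9944 for thapsigargin, 0.9949 to 0.9979 for PS19 lysate and 0.9906 to 0.9972 for control. The ER chaperone gene HSPA5 averaged 954 FPKM with thapsigargin and 145 FPKM in control cells, and ATF4 averaged 1345 FPKM with thapsigargin and 580.4 FPKM in control cells. Of 7 markers of the HEK293 line, LHX1 lay under 1 FPKM in every group mean and VIM, at 524 FPKM in control cells, was highest. The 12 markers of brain cells summed to 10.22 to 11.3 FPKM with thapsigargin, 11.06 to 11.97 FPKM with PS19 lysate and 9.89 to 11.8 FPKM in control cells, mostly from GAD1. SNAP25 and TMEM119 had group means of 0.052 FPKM or less, while SYT1 and SLC17A7, neuronal like SNAP25, averaged 1.96 and 1.15 FPKM in control cells. Of the 12 markers, 9 averaged under 1 FPKM in control cells. In RNA of whole cultures, a change of RNA per cell and a change in the mix of cells cannot be told apart.
With thapsigargin, 16 of the 20 cytosolic synthetase genes rose and 2 fell, whereas the 16 mitochondrial genes split into 4 that rose and 6 that fell (limma, adjusted p under 0.1 over all 11753 genes that averaged 1 FPKM or more, a filter that all 36 members passed). Of all tested genes, 26.0% rose and 43.4% fell, and the counts of the mitochondrial set lay near these shares. GARS and CARS, for glycine and cysteine, stood at 2.01 and 1.95 times their control levels, while IARS2 and LARS2, the mitochondrial enzymes for isoleucine and leucine, stood at 0.502 and 0.566 times. The median log2 difference was 0.52 over the cytosolic genes and -0.10 over the mitochondrial genes, against -0.13 over all tested genes. Differences are on the log2(FPKM + 0.5) scale and are thapsigargin minus control unless stated otherwise.

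**Figure D1:**
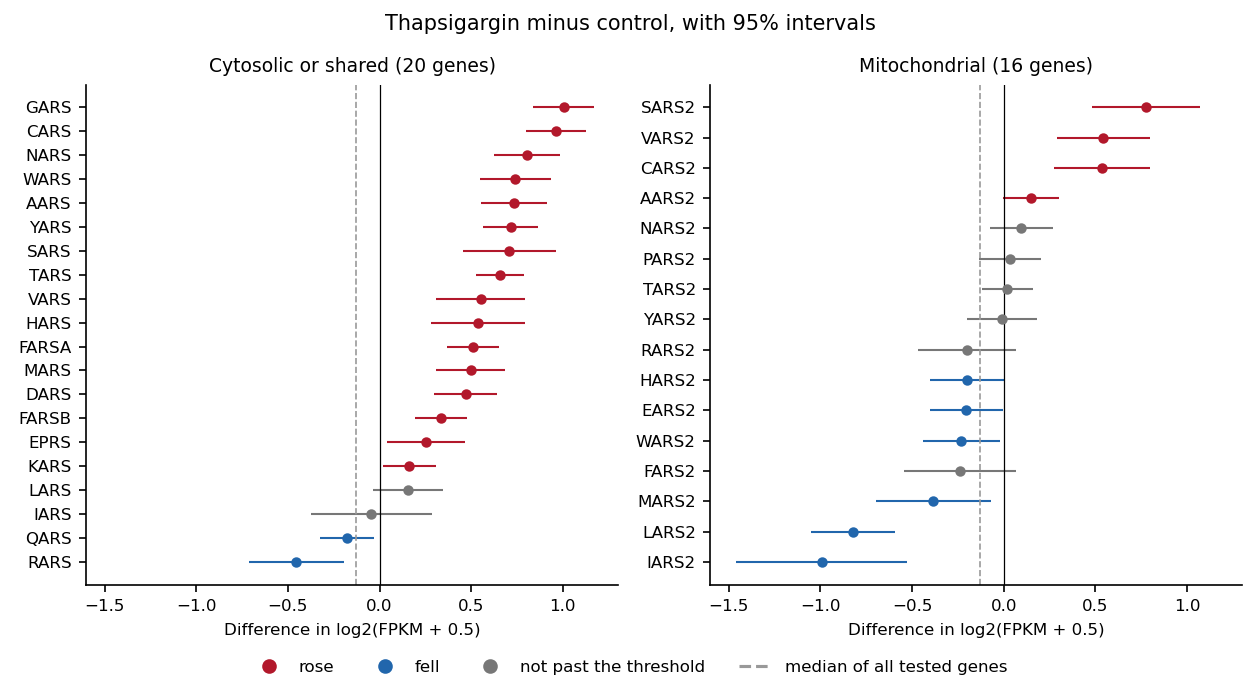
Log2(FPKM + 0.5) differences of thapsigargin minus control on the x axis for the 20 cytosolic or shared genes (left) and the 16 mitochondrial genes (right), 5 libraries per group. Points are limma estimates, bars are 95% intervals, red and blue mark genes that rose and fell and the dashed line is the median of all tested genes (-0.13). GARS (1.00) leads the cytosolic genes and RARS (-0.45) ends them, and the mitochondrial genes run between SARS2 (0.78) and IARS2 (-0.99). The small rises of KARS and AARS2 vanished after rescaling to TPM (-8.77e-05 and -0.01), and that of KARS also under quantile normalization (-0.0048).

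GARS, the glycine enzyme of both compartments, gave 241, 242, 274, 241 and 290.2 FPKM in the thapsigargin libraries, against 125, 134, 135, 123 and 121 FPKM in the control libraries. The lowest thapsigargin library lay well above the highest control library, and the difference was 1.00 ± 0.08 (SE, n = 5 per group, limma adjusted p = 1.11e-06). CARS, the cysteine enzyme and the least abundant cytosolic member in control cells, gave 44.2, 40.3, 42.5, 38.7 and 45.7 FPKM in the thapsigargin libraries, against 20.3, 24.03, 20.3, 20.8 and 21.8 FPKM in the control libraries. The groups again stood apart, with a difference of 0.96 ± 0.08 (adjusted p = 1.50e-06). NARS, which charges asparagine, gave 87.7, 102, 97.9, 116 and 91.03 FPKM in the thapsigargin libraries, against 55.7, 58.4, 58.5, 52.1 and 56.6 FPKM in the control libraries. Its difference was 0.80 ± 0.08 (adjusted p = 1.28e-05), with thapsigargin library 4 highest and every treated library above the control range.
WARS, the tryptophan enzyme, also known as a gene that interferons induce, gave 135, 126, 152, 142 and 172 FPKM in the thapsigargin libraries, against 77.3, 90.2, 87.9, 89.3 and 87.1 FPKM in the control libraries. AARS, the alanine enzyme, gave 117, 113, 123, 109 and 141 FPKM in the thapsigargin libraries, against 65.2, 77.2, 74.3, 70.8 and 73.5 FPKM in the control libraries. For both genes thapsigargin library 5 was highest and no treated library reached the control range, with differences of 0.74 ± 0.09 for WARS and 0.73 ± 0.08 for AARS (adjusted p = 3.79e-05 and 2.65e-05). YARS, the tyrosine enzyme and the most abundant member in every group, gave 322, 309, 342, 320.4 and 359 FPKM in the thapsigargin libraries, against 197, 216, 199, 195 and 198 FPKM in the control libraries. Its difference was 0.71 ± 0.07 (adjusted p = 7.50e-06), with coefficients of variation of 6.08% with thapsigargin and 4.23% in control cells.
SARS, the serine enzyme, gave 209.6, 193, 236, 196 and 309 FPKM in the thapsigargin libraries, against 136, 140.2, 144, 128 and 139 FPKM in the control libraries. Library 5 was highest by a wide margin, and the other 4 thapsigargin libraries also lay above every control library (difference 0.71 ± 0.12, adjusted p = 3.39e-04). TARS, the threonine enzyme, gave 174, 175, 188, 176 and 174 FPKM in the thapsigargin libraries, against 112, 116, 114, 113 and 107 FPKM in the control libraries. This was the tightest of the large responses, with a coefficient of variation of 3.35% in the thapsigargin group and a difference of 0.66 ± 0.06 (adjusted p = 5.89e-06).
Below these 8 genes the rises became smaller. VARS, HARS and FARSA, for valine, histidine and phenylalanine, differed by 0.55 ± 0.11, 0.54 ± 0.12 and 0.51 ± 0.07. MARS, DARS and FARSB, for methionine, aspartate and phenylalanine, differed by 0.50 ± 0.09, 0.47 ± 0.08 and 0.34 ± 0.07. The largest adjusted p among these 6 genes was 0.00212, and none of them overlapped between the groups. EPRS rose by 0.25 ± 0.10 (adjusted p = 0.0381), but its groups overlapped. Its call was lost after rescaling to TPM (0.09, adjusted p = 0.51), under quantile normalization (0.08, adjusted p = 0.538) and with control libraries 1 and 2 both left out (0.24, adjusted p = 0.111). KARS rose by 0.16 ± 0.07 (adjusted p = 0.0504), although the difference was -8.77e-05 after rescaling to TPM and -0.0048 under quantile normalization, and its call was lost without thapsigargin library 2, control library 4 or control library 5. In all, 15 cytosolic genes had every thapsigargin library above every control library, as 14.7% of all tested genes did.
The cytosolic genes that fell were QARS and RARS, which charge glutamine and arginine. QARS gave 79.4, 75.4, 83.7, 76.1 and 87.3 FPKM in the thapsigargin libraries, against 88.95, 93.2, 91.1, 85.7 and 95.5 FPKM in the control libraries. The groups overlapped through thapsigargin library 5, and the difference was -0.18 ± 0.07 (adjusted p = 0.0359). RARS gave 55.5, 49.6, 78.3, 53.4 and 71.6 FPKM in the thapsigargin libraries, against 76.5, 79.5, 85.99, 89.01 and 86.3 FPKM in the control libraries. Thapsigargin library 3 reached into the control range and the other 4 lay below it, with a difference of -0.45 ± 0.12 (adjusted p = 0.00592). The call of QARS was lost with median-ratio scaling (-0.05, adjusted p = 0.571), and with control libraries 1 and 2 both left out, where the difference was about the same (-0.18, adjusted p = 0.105), whereas RARS stayed past the threshold in both settings.
IARS and LARS, for isoleucine and leucine, did not pass the test. IARS gave 92.9, 77.8, 132, 92.9 and 133 FPKM in the thapsigargin libraries, against 85.5, 99.3, 115, 118 and 120.2 FPKM in the control libraries, so both groups held low and high libraries (difference -0.04 ± 0.15, 95% interval -0.38 to 0.29). LARS differed by 0.16 ± 0.09 (adjusted p = 0.144). After correction of each library for the GC content and length of transcripts, an alternative added after seeing the data, IARS was at 0.29 (adjusted p = 0.0124) and LARS at 0.50, both past the threshold. The correction also recentred the libraries, with a median over all its genes of -0.01, against -0.13 in the reported fit. With median-ratio scaling alone, LARS passed (0.29, limma adjusted p = 0.0076) and IARS did not (0.09, adjusted p = 0.591).

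**Figure D2:**
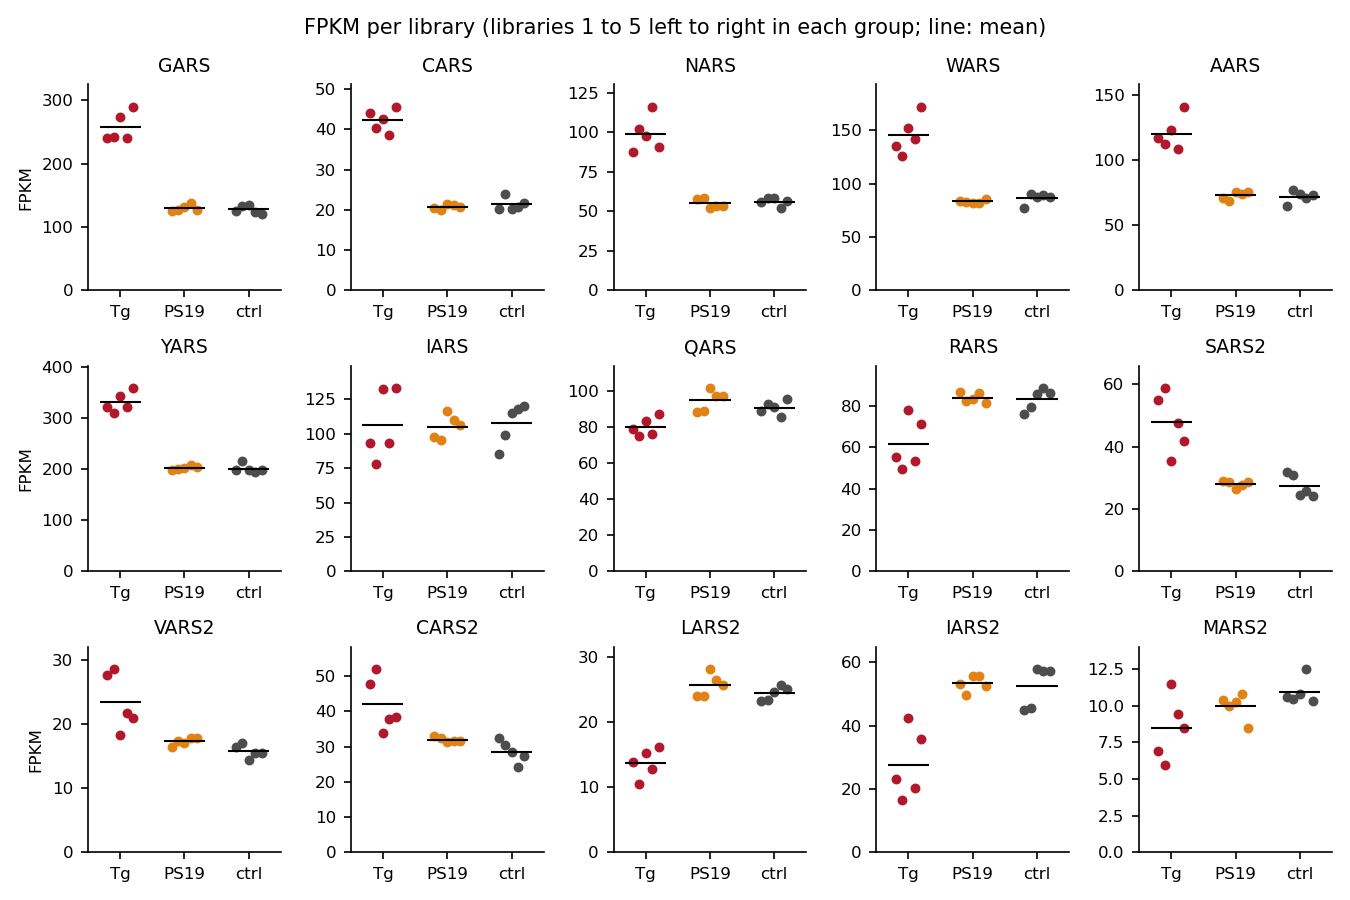
FPKM on the y axis, from 0, for 15 synthetase genes in each library of the thapsigargin (Tg), PS19 and control (ctrl) groups. Points are libraries 1 to 5, left to right, and lines are group means of 5 libraries. In the GARS panel the thapsigargin points lie between 241 and 290.2 FPKM, above all PS19 and control points, while in the IARS panel the thapsigargin points range between 77.8 and 133 FPKM across the control range.

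The cytosolic genes that were not called as risen belonged to a single subgroup. A group of 8 cytosolic synthetase genes (DARS, EPRS, IARS, KARS, LARS, MARS, QARS and RARS) encode enzymes that are held together in the multisynthetase complex. Of these 8, 4 rose, 2 fell and 2 did not pass, with a median difference of 0.16. Of all tested genes 26.0% rose and 43.4% fell, with a median of -0.13, and 6 of the 8 lay above that median. All 12 cytosolic genes outside the complex rose, with a median of 0.71 and a lowest value of 0.34 (FARSB). After correction for GC content and length, which also recentred the libraries, QARS and RARS were the only cytosolic genes that did not rise. The subgroups come from textbook roles, no test was made between them, and genes are not replicates.
Of the complex's scaffold genes, AIMP1 rose by 0.23 ± 0.07 (adjusted p = 0.0088), while AIMP2 and EEF1E1 did not pass (0.14 ± 0.14 and -0.13 ± 0.12). By catalytic class, all 10 class II genes rose (median 0.60), against 6 of 10 class I genes (median 0.38) and 26.0% of all tested genes. The class I genes hold 6 of the 8 complex members. The 2 dual-compartment genes, GARS and KARS, differed widely, at 1.00 and 0.16.
The promoters of the members were read from RefSeq (build GRCh38.p14, 250 bases before to 50 after each start), which matched 16 cytosolic and 14 mitochondrial genes. DARS, LARS, VARS, YARS, AARS2 and VARS2 were not matched. The C/EBP-ATF composite element, searched as TGATGNAA on both strands, was in the window of 7 of the 16 cytosolic genes and of 1 of the 14 mitochondrial genes. Over all genes with a promoter it was in 4.46%, and over the tested genes in 2.62%. The 7 cytosolic windows are printed because they belong to 6 genes that rose and to IARS, which did not pass the test. They lie at GARS chr7:30594834-30594863 (plus strand), CARS chr11:3057407-3057436 (minus strand), NARS chr18:57621804-57621833 (minus strand) and AARS chr16:70289675-70289704 (minus strand). The others lie at TARS chr5:33440956-33440985 (plus strand), MARS chr12:57488053-57488082 (plus strand) and IARS chr9:92293692-92293721 (minus strand). Each is read 5′ to 3′ on the strand of its gene, and capitals mark the match:
GARS: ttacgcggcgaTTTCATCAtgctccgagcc
CARS: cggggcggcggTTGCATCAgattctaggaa
NARS: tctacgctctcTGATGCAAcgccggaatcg
AARS: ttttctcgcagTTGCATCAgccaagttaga
TARS: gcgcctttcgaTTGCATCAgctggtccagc
MARS: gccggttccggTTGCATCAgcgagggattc
IARS: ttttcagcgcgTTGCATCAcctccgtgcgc
Of these 7 genes 6 rose and IARS did not pass (median difference 0.73, range -0.04 to 1.00). Of the 9 matched cytosolic genes without these letters 7 rose and 2 fell (median 0.34, range -0.45 to 0.74), and WARS and SARS were among those that rose most. Among all tested genes 26.0% rose and 43.4% fell. The matches lay close to the start in CARS, MARS, TARS and IARS, whereas that of AARS lay at -187 to -180. The mitochondrial match was in YARS2, whose expression differed by -0.01 ± 0.09 with thapsigargin, and it lies at YARS2 chr12:32756076-32756105 (minus strand):
YARS2: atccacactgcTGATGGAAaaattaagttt
The core letters of NRF1, a regulator of nuclear genes for mitochondrial proteins, were searched for as GCGCANGCG on both strands. They were in 3 of 16 cytosolic windows (FARSB, SARS and TARS) and 3 of 14 mitochondrial windows (IARS2, MARS2 and PARS2), against 18.1% of tested genes. A match is a description of the sequence, and binding was not measured.

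**Figure D3:**
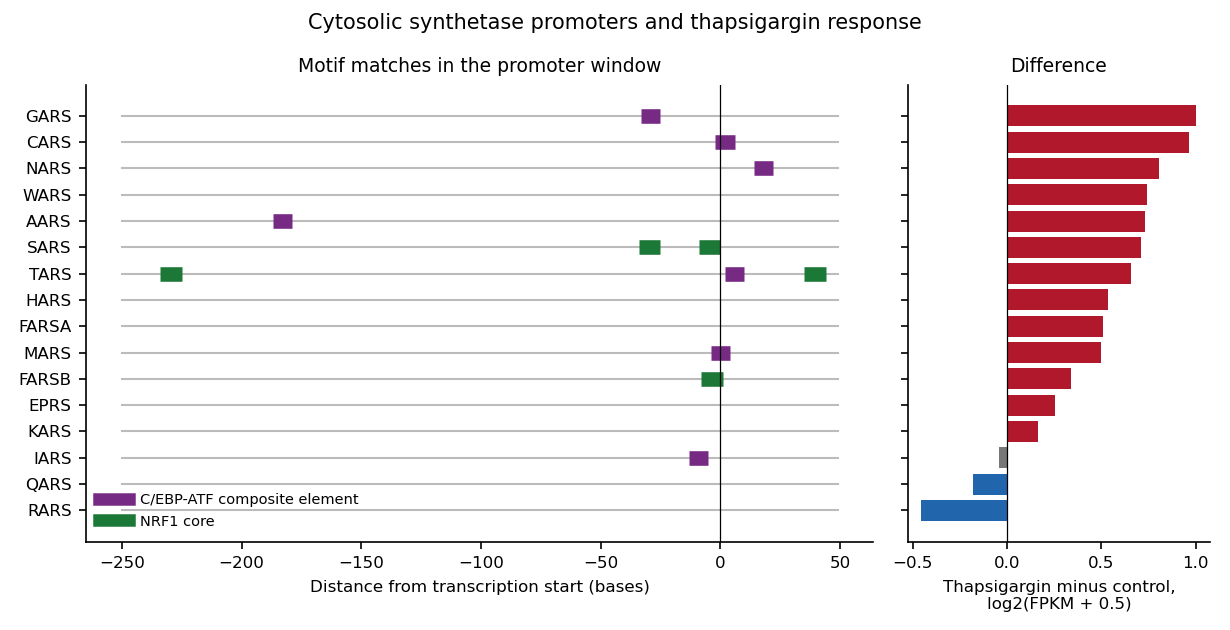
Matches to the C/EBP-ATF composite element (purple) and the NRF1 core (green) in the promoter windows of the 16 matched cytosolic genes, by distance from the transcription start in bases (left), and log2(FPKM + 0.5) differences of thapsigargin minus control (right, bars red for rose, blue for fell, grey for not past the threshold). A match is drawn at its distance from each listed start, so the same match appears at 2 places for SARS and TARS. Of the 7 genes with a purple match 6 rose, as did WARS, HARS and FARSA without any match. The rise of KARS vanished after TPM rescaling and under quantile normalization.

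Among the mitochondrial genes, SARS2, VARS2 and CARS2 rose and stood apart from the control group, and IARS2 and LARS2 fell and stood apart on the other side. SARS2, the mitochondrial serine enzyme, gave 55.1, 58.9, 35.4, 47.5 and 41.9 FPKM in the thapsigargin libraries, against 31.98, 30.9, 24.4, 25.8 and 24.1 FPKM in the control libraries. Thapsigargin libraries 1 and 2 were highest, as were control libraries 1 and 2, and the difference was 0.78 ± 0.14 (adjusted p = 5.24e-04). VARS2, for valine, gave 27.8, 28.7, 18.4, 21.8 and 21.1 FPKM in the thapsigargin libraries, against 16.4, 17.1, 14.4, 15.5 and 15.5 FPKM in the control libraries. CARS2, for cysteine, gave 47.8, 52.1, 33.9, 37.8 and 38.3 FPKM in the thapsigargin libraries, against 32.5, 30.3, 28.4, 24.3 and 27.4 FPKM in the control libraries. Thapsigargin libraries 1 and 2 again led, and every treated library exceeded every control library in both genes, with differences of 0.54 ± 0.12 for VARS2 and 0.54 ± 0.12 for CARS2 (adjusted p = 0.00181 and 0.00235).
AARS2, the alanine enzyme, gave 18.9, 20.3, 17.2, 17.9 and 17.5 FPKM in the thapsigargin libraries, against 16.9, 16.7, 15.8, 16.9 and 16.3 FPKM in the control libraries. The groups stood just apart, the difference was small at 0.15 ± 0.07 (adjusted p = 0.0823), and it was -0.01 after rescaling to TPM. Its call was lost when any of the control libraries, or thapsigargin library 1, 2 or 4, was left out. Thus 4 of the 16 mitochondrial genes had every thapsigargin library above the control group, as 14.7% of all tested genes did.
IARS2, the most abundant mitochondrial member in control cells, gave 23.1, 16.6, 42.5, 20.4 and 35.6 FPKM in the thapsigargin libraries, against 45.04, 45.5, 57.96, 57.2 and 57.2 FPKM in the control libraries. Thapsigargin libraries 3 and 5 were the highest of a wide group and still lay under every control library, and the difference of -0.99 ± 0.22 (adjusted p = 0.0019) was larger in size than that of any other mitochondrial member. LARS2, a gene in which mutations cause hearing loss and ovarian failure (Perrault syndrome), gave 13.8, 10.5, 15.3, 12.8 and 16.3 FPKM in the thapsigargin libraries, against 23.2, 23.5, 24.7, 25.7 and 25.1 FPKM in the control libraries. Its groups did not overlap either, with a difference of -0.82 ± 0.11 (adjusted p = 6.17e-05). Every thapsigargin library lay below every control library for these 2 genes, as it did for 25.3% of all tested genes.
MARS2, which charges methionine, gave 6.95, 5.94, 11.5, 9.41 and 8.52 FPKM in the thapsigargin libraries, against 10.6, 10.4, 10.8, 12.5 and 10.3 FPKM in the control libraries. Library 3 of the thapsigargin group exceeded 4 of the control libraries, and the difference was -0.38 ± 0.14 (adjusted p = 0.0356). WARS2, for tryptophan, gave 9.89, 8.76, 12.2, 9.95 and 10.7 FPKM in the thapsigargin libraries, against 11.1, 11.2, 12.9, 13.4 and 12.2 FPKM in the control libraries. Thapsigargin library 3 lay inside the control range and the other 4 below it, and the difference was -0.23 ± 0.10 (adjusted p = 0.0532).
EARS2, which charges glutamate, gave 12.6, 10.8, 15.4, 12.4 and 13.8 FPKM in the thapsigargin libraries, against 14.5, 15.4, 15.1, 15.5 and 14.3 FPKM in the control libraries. HARS2, for histidine, gave 10.3, 10.6, 11.3, 9.19 and 12.98 FPKM in the thapsigargin libraries, against 11.3, 12.1, 13.03, 12.8 and 13.3 FPKM in the control libraries. Thapsigargin library 3 lay inside the control range for EARS2 and library 5 for HARS2, and the differences were small, -0.20 ± 0.09 for EARS2 and -0.20 ± 0.09 for HARS2 (adjusted p = 0.0699 and 0.0783). EARS2 was at 0.15 after the correction for GC content and length (adjusted p = 0.0485), so its direction turned. The count of 6 that fell was 3 when thapsigargin library 1 or 2 or control library 3 or 4 was left out, and 8 without thapsigargin library 3. The calls lost there were those of EARS2, HARS2 and WARS2. MARS2 lost its call with median-ratio scaling (-0.26, adjusted p = 0.104), under quantile normalization (-0.20, adjusted p = 0.147) and after the correction for GC content and length (-0.20, adjusted p = 0.127).
The other 6 mitochondrial genes did not pass. FARS2 and RARS2, for phenylalanine and arginine, differed by -0.24 ± 0.14 and -0.20 ± 0.12. NARS2, PARS2, TARS2 and YARS2, for asparagine, proline, threonine and tyrosine, lay between -0.01 and 0.10, with 95% intervals that reached no further than -0.20 and 0.27. FARS2 and RARS2 passed as genes that fell when thapsigargin library 3 was left out.
Libraries of the same group differed with the GC content of transcripts across all tested genes and across the mitochondrial members. Across the 11582 tested genes with values, the deviations of a library from its group mean correlated with GC content at r = 0.68, 0.56, -0.70, -0.05 and -0.26 in thapsigargin libraries 1 to 5 and at 0.44, 0.60, -0.39, -0.41 and -0.39 in control libraries 1 to 5. Across the 16 mitochondrial genes these correlations were 0.74, 0.77, -0.83, 0.13 and -0.50 in the thapsigargin libraries and 0.59, 0.85, -0.83, -0.40 and -0.51 in the control libraries. The deviations also went with log2 transcript length across all tested genes. There r was -0.29, -0.30, 0.40, -0.08 and 0.13 in the thapsigargin libraries and -0.50, -0.42, -0.01, 0.47 and 0.52 in the control libraries. The thapsigargin minus control difference of the mitochondrial genes, which share these libraries, correlated with GC content at r = 0.68, against 0.27 across the 20 cytosolic genes and 0.30 across all tested genes. With log2 transcript length the difference correlated at -0.39 across the mitochondrial genes, -0.15 across the cytosolic genes and -0.42 across all tested genes. After correction for GC content and length, 18 cytosolic genes rose and 2 fell, and 6 mitochondrial genes rose and 3 fell, while 33.3% of the 11584 genes of that fit, 3854 genes, rose and 4168 fell.
The scaling of the libraries moved the medians. The median difference of all tested genes was -0.29 after rescaling to TPM, -0.002 with median-ratio scaling and -0.02 with quantile normalization, and the numbers of all genes that rose and fell, 3058 and 5100 in FPKM, were 2039 and 6424, 4014 and 3924, and 3716 and 4132 under these scalings. The median of the cytosolic genes was 0.36, 0.66 and 0.40 in the same order, and that of the mitochondrial genes -0.27, 0.03 and -0.02. Relative to the median of all tested genes, 18 of 20 cytosolic and 8 of 16 mitochondrial genes were above it in FPKM, after TPM rescaling and with median-ratio scaling, and 17 and 8 were above it under quantile normalization.
The sets also parted in their sums. The 20 cytosolic genes together gave 2551, 2532, 2745, 2557 and 2911 FPKM in the thapsigargin libraries, against 1812, 1922, 1902, 1843 and 1856 FPKM in the control libraries. The 16 mitochondrial genes gave 330.1, 323.9, 326.8, 303.0 and 331.1 FPKM in the thapsigargin libraries, against 323.4, 324.8, 327.4, 326.0 and 322.8 FPKM in the control libraries. The cytosolic sum thus stood higher in every thapsigargin library than in every control library, whereas the mitochondrial sums overlapped. As a share of all FPKM of the library, the cytosolic genes held 0.397% to 0.502% with thapsigargin and 0.328% to 0.364% in control cells. The mitochondrial genes held 0.0501% to 0.0593% with thapsigargin and 0.0585% to 0.0644% in control cells, so that the thapsigargin libraries other than library 3 lay below every control library. The ratio of the sums was 7.73 to 8.79 with thapsigargin, 5.60 to 5.75 with PS19 lysate and 5.60 to 5.92 in control cells.
Most amino acids have a cytosolic gene and a mitochondrial partner, and 17 such pairs could be formed within each library. EPRS was paired with both EARS2 and PARS2, and FARS2 with both FARSA and FARSB, so the pairs are not all separate. The pairs share no stretch of 50 bases between their transcripts. The cytosolic gene gained on its partner in every thapsigargin library against every control library in 10 pairs, among them EPRS over EARS2 and FARSA over FARS2. It lost in 1 pair, RARS over RARS2, with mean ratios of 3.82 with thapsigargin and 4.56 in control cells. How often the ratios of other gene pairs stand apart in this way was not computed, so these counts have no background share. LARS over LARS2 averaged a ratio of 3.99 with thapsigargin and 1.98 in control cells, and WARS over WARS2 averaged 14.1 with thapsigargin and 7.14 in control cells. IARS over IARS2 averaged 4.03 with thapsigargin and 2.05 in control cells. In the isoleucine and leucine pairs the mitochondrial gene fell while the cytosolic gene did not pass the test. CARS2 exceeded CARS in every control library, and with thapsigargin the pair stood near equality, at a mean ratio of 1.03, against 0.756 in control cells. SARS over SARS2 and VARS over VARS2 had overlapping ratios, with means of 5.05 with thapsigargin against 5.10 in control cells for serine and of 3.52 in both groups for valine, and both genes of each pair rose.

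**Figure D4:**
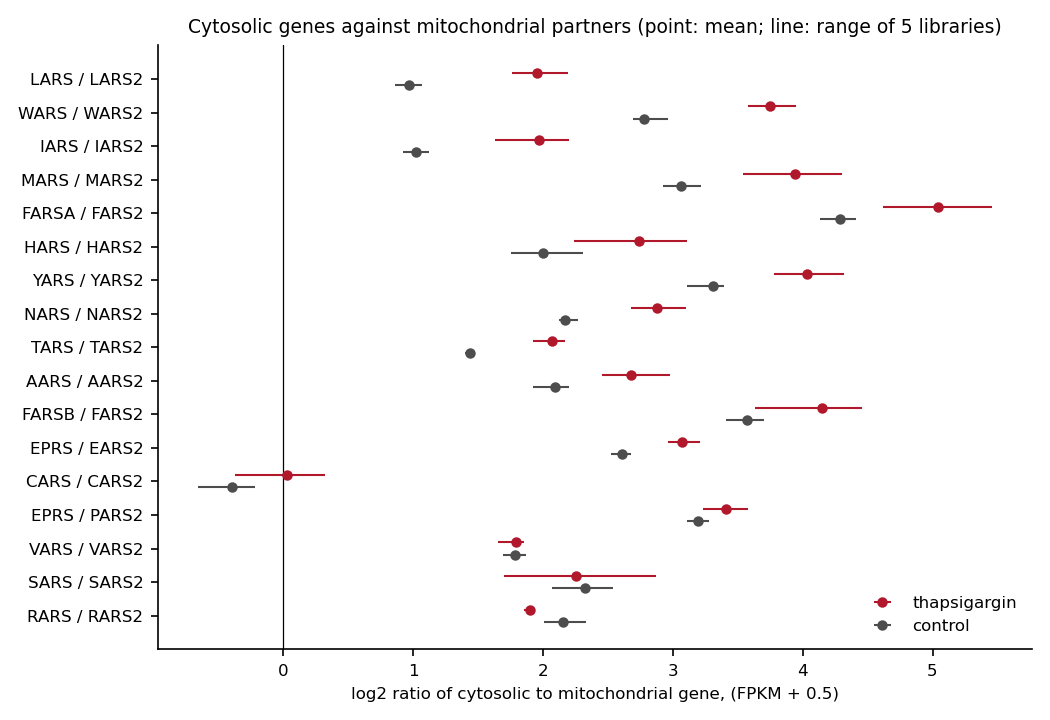
Log2 ratio of (FPKM + 0.5) between each cytosolic gene and its mitochondrial partner, x axis, for 17 pairs sorted by the difference between groups. Points are means of 5 libraries and lines span the lowest to the highest library, thapsigargin in red above control in grey. The leucine pair moved furthest, to 1.95 with thapsigargin against 0.97 in control cells, and the arginine pair at the bottom moved the other way.

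HARS and HARS2 lie head to head on chromosome 5, with starts 85 bases apart, so that their promoter windows overlap. The 84 bases between the starts, chr5:140691371-140691454 on the plus strand (RefSeq, GRCh38.p14), hold 59.5% G or C. They are printed because they are shared by a cytosolic gene that rose and a mitochondrial gene whose small fall was called in FPKM:
HARS-HARS2: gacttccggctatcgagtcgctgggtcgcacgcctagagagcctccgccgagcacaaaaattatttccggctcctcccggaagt
HARS is read leftward from this stretch and HARS2 rightward. HARS gave 79.2, 92.5, 61.04, 83.1 and 63.1 FPKM in the thapsigargin libraries, against 57.97, 55.6, 51.2, 47.4 and 45.9 FPKM in the control libraries. HARS2 gave the values above. Its call was lost with median-ratio scaling, under quantile normalization and after the correction for GC content and length. The ratio of HARS to HARS2 averaged 7.16 with thapsigargin and 4.16 in control cells, with overlapping ranges. Neither the composite element nor the NRF1 core was found in these windows.
Other genes of tRNA charging moved less uniformly than the cytosolic synthetases. Of 6 genes for other routes to charged tRNA, PSTK and SEPSECS, which make selenocysteine on its tRNA, rose by 0.80 ± 0.10 and 0.27 ± 0.12, while GATC, a subunit of the mitochondrial glutamine route, and MTFMT, which formylates the mitochondrial initiator, differed by -0.49 ± 0.07 and -0.35 ± 0.11 and fell. Among proofreading and recycling genes, AARSD1, an editing enzyme for mischarged alanine tRNA, rose by 1.03 ± 0.11 (adjusted p = 1.22e-05). PTRH2, a peptidyl-tRNA hydrolase, rose by 0.75 ± 0.12, while DTD1 and DTD2, which act on tRNA charged with D-amino acids, differed by -0.11 ± 0.10 and -0.01 ± 0.10 and did not pass. Of 7 elongation factor genes tied to the delivery of charged tRNA, directly or as partners of the carrier, EEF1D rose by 0.54 ± 0.14. EEF1A1 fell by 0.49 on the log2 scale, to 1511 FPKM with thapsigargin against 2091 FPKM in control cells.
Of 10 genes of the uncharged-tRNA and stress signal, 8 rose and 1 fell, against 26.0% and 43.4% of all tested genes, with a median of 1.498. DDIT3 and CHAC1, both targets of the ATF4 branch, rose by 3.70 ± 0.14 and 3.46 ± 0.17, and ASNS, asparagine synthetase, by 1.48 ± 0.08. EIF2AK4, which encodes the uncharged-tRNA sensor kinase GCN2, fell by 0.52 on the log2 scale (adjusted p = 3.27e-04), and EIF2AK3, which encodes PERK, did not pass at 0.42 ± 0.23. The rises of DDIT3, CHAC1 and ASNS were larger than that of any synthetase gene, since GARS, the furthest, was at 1.00.
With PS19 lysate, none of the 36 synthetase genes passed the test, and 0.0425% of all tested genes, 5 of 11753, did (2 rose and 3 fell, limma). At an unadjusted limma p under 0.05 stood 0 of 20 cytosolic and 3 of 16 mitochondrial genes, against 6.01% of all tested genes, and by the exact permutation test 1 cytosolic (SARS) and 3 mitochondrial genes were under 0.05, against 5.70% of all tested genes. No member had groups that did not overlap, which 1.01% of all tested genes had. The median PS19 minus control difference was 0.01 over the cytosolic and 0.02 over the mitochondrial genes. The 95% intervals of the cytosolic genes lay within -0.21 (IARS) and 0.24 (HARS), and those of the mitochondrial genes within -0.28 (MARS2) and 0.31 (FARS2).
Of the 10 genes of the stress signal, none passed with PS19 lysate, and ASNS and CHAC1 differed by -0.27 ± 0.06 and -0.49 ± 0.12 (adjusted p = 0.285 and 0.423). At an unadjusted limma p under 0.05 stood 5 of the 10, against 6.01% of all tested genes. Of the 10, 1 differed upward and 2 lay above the median of all tested genes (-0.01). The list was chosen with earlier results of these data known, so these counts are a description only. CEBPB alone had groups that did not overlap, with PS19 below control, against 1.01% of all tested genes in either direction. Both comparisons against control share the control libraries.
The smallest p-values in the cytosolic set belonged to SARS, HARS and EPRS. SARS gave 141, 144, 151, 144 and 156 FPKM in the PS19 libraries, against 136, 140.2, 144, 128 and 139 FPKM in the control libraries. HARS gave 55.3, 57.6, 54.1, 56.6 and 53.6 FPKM in the PS19 libraries, against 57.97, 55.6, 51.2, 47.4 and 45.9 FPKM in the control libraries. EPRS gave 98.7, 97.8, 100.4, 96.3 and 96.97 FPKM in the PS19 libraries, against 89.9, 96.2, 98.9, 90.9 and 93.9 FPKM in the control libraries. All of these ranges overlapped, and the PS19 minus control differences were 0.10 ± 0.05, 0.11 ± 0.06 and 0.06 ± 0.04 (adjusted p = 0.828, 0.828 and 0.864).
In the mitochondrial set they belonged to FARS2, CARS2 and VARS2. FARS2 gave 8.72, 8.38, 9.23, 7.63 and 8.84 FPKM in the PS19 libraries, against 7.07, 8.0, 7.13, 7.44 and 8.11 FPKM in the control libraries. CARS2 gave 33.1, 32.5, 31.2, 31.5 and 31.6 FPKM in the PS19 libraries, against 32.5, 30.3, 28.4, 24.3 and 27.4 FPKM in the control libraries. VARS2 gave 16.5, 17.4, 17.03, 17.9 and 17.9 FPKM in the PS19 libraries, against 16.4, 17.1, 14.4, 15.5 and 15.5 FPKM in the control libraries. The PS19 libraries lay toward the upper end of the control range or above it, except FARS2 in PS19 library 4, which lay below control libraries 2 and 5. The differences of 0.17 ± 0.07, 0.17 ± 0.07 and 0.13 ± 0.06 did not pass (adjusted p = 0.79, 0.806 and 0.809). Control libraries 1 and 2 deviated with GC content and length as above, and without both of them, an alternative added after seeing the data, 6 members passed. HARS and VARS rose by 0.20 and 0.17, IARS fell by 0.17 on the log2 scale, and CARS2, SARS2 and VARS2 rose by 0.26, 0.18 and 0.19, in a fit that called 877 genes as risen and 1561 as fallen.

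**Figure D5:**
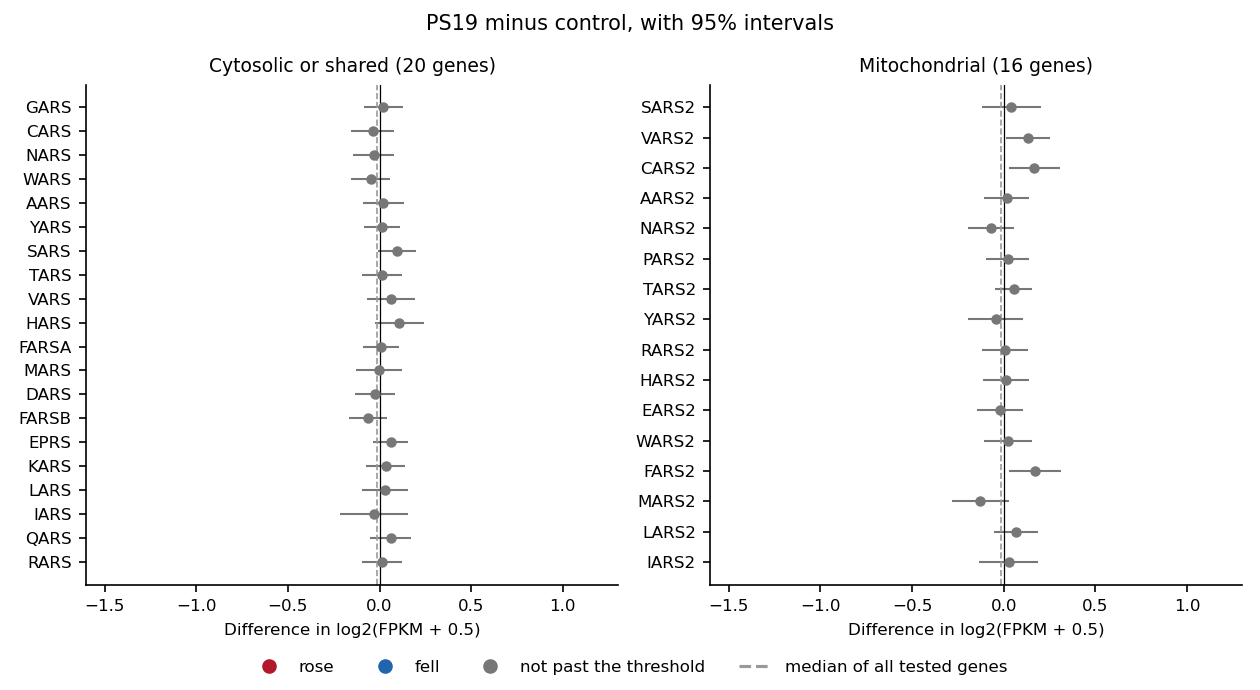
Log2(FPKM + 0.5) differences of PS19 minus control on the x axis for the 20 cytosolic or shared genes (left) and 16 mitochondrial genes (right), in the gene order and on the axis of the thapsigargin plot, 5 libraries per group. Points are limma estimates, bars 95% intervals and the dashed line the median of all tested genes (-0.01). All points are grey, since no gene passed the threshold, and they lie between -0.13 (MARS2) and 0.17 (FARS2).

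The thapsigargin and PS19 libraries were also tested against each other, in a comparison that shares the thapsigargin libraries with the one against control. Thapsigargin was higher for 16 and lower for 2 of the 20 cytosolic genes, against 25.8% and 42.2% of all tested genes. It was higher for 3 mitochondrial genes (SARS2, VARS2 and CARS2) and lower for 5 (IARS2, LARS2, FARS2, WARS2 and HARS2), and for 8 when thapsigargin library 3 was left out. In the PS19 libraries GARS gave 126, 127, 131, 138 and 127 FPKM and IARS2 gave 53.1, 49.5, 55.6, 55.6 and 52.6 FPKM, in both genes apart from all thapsigargin libraries. GARS averaged 258 ± 23.0 FPKM with thapsigargin and 129.7 ± 4.8 FPKM with PS19 lysate (SD, n = 5 each), a difference of 0.98 ± 0.07. KARS, which averaged 146 ± 6.47 FPKM with thapsigargin and 133 ± 4.85 FPKM with PS19 lysate, was called higher with thapsigargin at 0.13 ± 0.06 but stood at -0.01 after TPM rescaling and -0.02 under quantile normalization. QARS and RARS lay below every PS19 library in every thapsigargin library, at -0.24 ± 0.07 and -0.47 ± 0.12.
The members also varied more among the thapsigargin libraries. The coefficient of variation over 5 libraries had a median of 10.9% over the cytosolic genes with thapsigargin, 3.67% with PS19 lysate and 5.35% in control cells, and over the mitochondrial genes the medians were 14.8% with thapsigargin, 4.88% with PS19 lysate and 6.40% in control cells. It was highest in IARS2 with thapsigargin, at 39.6%. In mean level per length, the cytosolic genes ranged between 21.4 FPKM (CARS) and 200.9 FPKM (YARS) in control cells, and the mitochondrial genes between 7.55 FPKM (FARS2) and 52.6 FPKM (IARS2).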

How the data were processed

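RNA-Seq values of 15 Biosensor cell libraries were used, 5 each with thapsigargin, PS19 lysate and control lysate, grouped by their labels. The authors made strand-specific mRNA libraries, and used SOAPnuke for read filtering, HISAT2 2.0.4 for mapping (GRCh38.p12) and RSEM 1.2.12 for quantification (versions per the submitters' processing notes). They deposited FPKM per gene and library, and the sources name no further scaling. The first control column, deposited with other text in 408 rows that hold no measurement, was otherwise read as FPKM. Rows without a gene ID, 693 for each group, were not used, and no sample column was left unused. Depth is unknown, since only 28.0% of 21040 low values lay within 0.15 of whole multiples of a shared step, so no count model was fitted.
Genes averaging 1 FPKM or more (11753) entered the tests. Their log2(FPKM + 0.5) values were fitted with limma 3.58.1 under R 4.3.3, two-sided and with the trend option of its empirical Bayes step, each pair of groups alone, with Benjamini-Hochberg adjustment over all genes tested and a threshold of 0.1. The exact two-sided permutation test of single members could not go below p = 0.0079. Libraries were given for the 8 cytosolic members with the largest difference in each direction among those called with thapsigargin, for every mitochondrial member called, and for the 3 members of smallest p per set with PS19. IARS, HARS and the other genes given beyond this were chosen after their values were seen. Members and lists were chosen with earlier results of these data known. Promoters came from RefSeq, and GC content and length from GENCODE canonical transcripts of another build matched by symbol (98.6% of tested genes). The fits were tested on simulated data. Some genes of the lists are not reported here. Alternatives covered the pseudocount, the filter, rescaling to TPM, median-ratio and quantile scaling, a fit of all 15 libraries, the replicate number as a block, untrended and robust forms of limma, a threshold of 0.05 and each library left out. Alternatives chosen later, with the data in view, left out control libraries 1 and 2, left out thapsigargin libraries 2 and 3, or applied a spline correction for GC content and length.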

Additional observations from a re-analysis of the deposited data

Results flagged for a closer look

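Among 108 groups of 5 libraries (36 genes in 3 groups), 5 had a library far from the other 4, which is close to the 5.4 that chance gives at 1 in 20. They were TARS in thapsigargin library 3 (187.92 FPKM, against 173.5 to 176.07 in the others), WARS in control library 1 (77.34 FPKM, against 87.1 to 90.23), YARS in control library 2 (215.86 FPKM, against 194.66 to 199.03), MARS2 in control library 4 (12.54 FPKM, against 10.32 to 10.78) and PARS2 in control library 2 (10.69 FPKM, against 9.52 to 9.72). TARS, WARS, YARS and MARS2 kept their thapsigargin calls when each of these libraries was left out.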

How the results depend on the processing

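For thapsigargin against control, the number of cytosolic genes that rose (16) lay between 14 and 18 under every alternative tried. The number that fell (2) was 1 with median-ratio scaling and 1 without control libraries 1 and 2. The number of mitochondrial genes that rose (4) lay between 3 and 7, and was 7 with median-ratio scaling. The number that fell (6) was 9 after TPM rescaling, with FARS2, RARS2 and YARS2 added, 8 in the fit of all 15 libraries, 2 with median-ratio scaling, 2 with quantile normalization, 3 at a threshold of 0.05, 3 after correction for GC content and length, and 3 to 8 with single libraries left out. For thapsigargin against PS19, the cytosolic genes that fell (2) were 1 with median-ratio scaling. The mitochondrial genes that rose (3) were 5 with median-ratio scaling, 6 with quantile normalization, 5 in the fit of all 15 libraries and 6 after correction for GC content and length. Those that fell (5) were 9 after TPM rescaling, 3 with median-ratio scaling, 2 with quantile normalization, 8 in the fit of all 15 libraries, 8 without thapsigargin libraries 2 and 3, and 4 to 8 with single libraries left out. For PS19 against control, leaving out control libraries 1 and 2 gave 2 cytosolic genes that rose, 1 that fell and 3 mitochondrial genes that rose, against 0 otherwise. The rise of KARS vanished after TPM rescaling (-8.77e-05 against control, -0.00932 against PS19) and quantile normalization (-0.00484 and -0.0155), and that of AARS2 after TPM rescaling (-0.0113 against control). The direction turned after correction for GC content and length for IARS (0.292 against control, 0.284 against PS19) and EARS2 (0.151 and 0.134). The cause was not tested.
The replicate number as a block gave 17 cytosolic genes that rose and 2 that fell, and 3 mitochondrial genes that rose and 8 that fell, for thapsigargin against control. It gave 0 members for PS19 against control, with 6 rising and 7 falling among all tested genes, and 15, 2, 3 and 5 for thapsigargin against PS19. For thapsigargin against control, same-numbered libraries 1 to 5 correlated at 0.476, 0.609, 0.348, -0.128 and 0.359. For PS19 against control the values were -0.209 to 0.325, and for thapsigargin against PS19 -0.059 to 0.23. Not every library matched its own number best, so the numbers were not taken as pairs. Whether the thapsigargin and control libraries share a replicate structure was not tested beyond the block. The unknown depth means that counting error could not be given for the less abundant mitochondrial genes.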

Other observations

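Besides HARS and HARS2, 6 synthetase genes have a start close to that of another protein-coding gene on the opposite strand (RefSeq, GRCh38.p14), and the neighbours gave their own thapsigargin minus control differences. WARS rose together with WDR25 (0.71 ± 0.09, adjusted p = 5.83e-05), whose start is 158 bases away, and KARS with TERF2IP (0.53 ± 0.08, adjusted p = 1.33e-04), 108 bases away. EARS2 fell in FPKM, though not after correction for GC content and length, and so did UBFD1 (-0.62 ± 0.17, adjusted p = 0.00616), 352 bases away. SARS2 rose while MRPS12, 181 bases away, differed by -0.07 ± 0.09, and RARS2 and ORC3, 148 bases apart, differed by -0.20 ± 0.12 and 0.11 ± 0.08. FARS2 and LYRM4, 57 bases apart, differed by -0.24 ± 0.14 and -0.11 ± 0.08, and none of MRPS12, RARS2, ORC3, FARS2 and LYRM4 passed. The neighbours were taken from the annotation. The rise of KARS vanished after TPM rescaling and quantile normalization.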
